A study of Mus musculus with 16 samples.

Results

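Cells without *Stat3* were compared with wild-type (WT) cells of the same kind of chimeric mouse embryo at embryonic day (E) 9.5, within each cell type and over all cell types other than Erythroid. A cell entered where the authors' table gave the stage E9.5, a passed RNA filter and no doublet call. A null cell came from the tdTomato-positive sort gate, and a WT cell came from the tdTomato-negative gate and carried no tdTomato UMI (unique molecular identifier, the tag by which captured RNA molecules are counted). The rule gave 21056 cells, 9857 null and 11199 WT, of 37841 cells in the whole series. Of 23983 E9.5 cells that passed the RNA filter, 1978 doublet calls, 550 WT-sorted cells with a tdTomato UMI and 399 Erythroid cells had been set aside. Null and WT were each represented by 4 libraries, called A to D in the order of their names, and the letters were not used to pair libraries across genotypes.

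The null cells descend from a CD1 embryonic stem cell (ESC) line in which internal *Stat3* exons are replaced by a neomycin resistance gene, labelled with a piggyBac transgene whose CAG promoter drives H2B-tdTomato, and taken through puromycin selection and colony picking. They had been injected into WT CD1 blastocysts, so both genotypes share the CD1 stock and developed side by side, and whole chimeras were dissociated and sorted. Chimeras with an intermediate donor share had been chosen for profiling. No chimera made with WT donor ESCs is among these samples, so the deletion, the donor line, its passage through culture and the alleles that donor and host happened to inherit cannot be told apart. The sample labels give 1 embryo to each of 4 E9.5 pools, whereas the methods of the study describe fewer E9.5 embryos than there are libraries of a genotype. Whether the 4 libraries of a genotype are independent embryos is therefore not known, and p-values measure only the spread between these libraries.

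STAT3 is a latent transcription factor. Cytokines of the interleukin-6 and LIF family bind receptors that contain gp130, the attached JAK kinases phosphorylate STAT3, and the STAT3 dimer enters the nucleus, binds sites of the form TTCNNNGAA and switches on targets that include its own feedback inhibitors of the SOCS family. In mouse ESCs this route sustains self-renewal, and in blood-forming cells several STATs act below cytokine receptors. Some of the genes that differed here belong to another class, imprinted genes, which are transcribed from only the maternal or only the paternal copy according to DNA methylation marks laid down in the germ line, and which include growth regulators such as *Igf2*, *H19* and *Grb10*.

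Promoter windows of the recurrent genes described below were searched for the STAT form. A window ran from 250 bases before to 50 bases after a transcript start (RefSeq, GRCm38.p6), and TTCNNNGAA, which reads the same on both strands, was present in 2725 of 32841 windows (8.30%). Of the 24 recurrent genes 18 had a window, 28 windows in all, and 2 of these (7.14%) held the form, a share close to that of all windows. These are shown because they hold the form among the recurrent genes that had a window, with TTC and GAA in capitals. The first belongs to *Zfp458* (chr13:67268945-67269244, minus strand, match at position -206 from the start) and the second to an upstream start of *Zdbf2* (chr1:63200108-63200407, plus strand, match at -242). The third window is the CpG-richer of 2 windows of *Grb10*, the gene with the largest recurrent fall (chr11:12037371-12037670, minus strand). Neither has a match, the other holds 9 CpG, and the 45 CpG dinucleotides, the sites at which mammalian DNA is methylated, of the window shown are in capitals against a median of 7 per window.
Zfp458: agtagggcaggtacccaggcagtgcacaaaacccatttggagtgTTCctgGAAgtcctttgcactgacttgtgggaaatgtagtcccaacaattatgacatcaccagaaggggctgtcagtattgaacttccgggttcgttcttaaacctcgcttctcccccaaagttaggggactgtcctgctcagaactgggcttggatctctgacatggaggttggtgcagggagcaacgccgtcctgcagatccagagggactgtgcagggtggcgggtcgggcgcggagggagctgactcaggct
Zdbf2: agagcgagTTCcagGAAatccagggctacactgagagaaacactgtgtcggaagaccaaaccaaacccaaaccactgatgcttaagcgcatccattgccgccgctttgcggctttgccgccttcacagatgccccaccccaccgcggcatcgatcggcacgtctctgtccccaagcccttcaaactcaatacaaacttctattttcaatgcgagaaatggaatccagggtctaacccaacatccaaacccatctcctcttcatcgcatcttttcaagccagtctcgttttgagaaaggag
Grb10: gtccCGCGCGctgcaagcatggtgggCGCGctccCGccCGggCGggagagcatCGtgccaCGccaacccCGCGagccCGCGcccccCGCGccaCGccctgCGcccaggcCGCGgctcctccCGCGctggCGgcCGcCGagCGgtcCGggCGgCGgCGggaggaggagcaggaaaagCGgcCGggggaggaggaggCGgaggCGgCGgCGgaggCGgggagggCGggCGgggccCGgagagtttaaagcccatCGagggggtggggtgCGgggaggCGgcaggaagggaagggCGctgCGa

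A match is only a description of these letters, and no binding or methylation was measured. Libraries held 1540 to 4318 cells and 68856575 to 138434377 UMIs outside Erythroid, with a median of 26833 to 45768 UMIs per cell. Between 96.1% and 98.3% of singlets from the null gate carried at least 1 tdTomato UMI, as did 1.46% to 8.47% of WT-sorted singlets before those cells were set aside. *Xist*, the RNA of the inactive X chromosome, reached 627 and 629 CPM (the UMIs of a gene scaled to the same total in every library) in WT B and C and at most 0.289 in WT A and D, and it reached 28.9 and 14.0 in null B and C and at most 0.174 in null A and D. Y-linked genes summed to 78.4 to 98.5 CPM in every null library and to 117 and 119 in WT A and D, but to 0.068 and 0.09 in WT B and C, so WT B and C were female and sex is in part confounded with genotype. Without WT B and C there were 343 calls within types, 226 of them among the 389 described below, and 46 over all cells, 27 of them among the 41 described below. Haemoglobin RNA outside Erythroid cells summed to 10.5 to 120 CPM in null and 568 to 1495 in WT libraries, and the 5 erythroid markers together to 7.73 to 87.7 and 468 to 1154. Of the other marker lists mesothelium also stood apart (27.7 to 36.1 against 36.9 to 52.6 CPM) and 8 overlapped. WT C and WT D share 292 cell names (15.3% and 7.38% of their cells), yet only 10 of these (3.42%) carry the same type and the UMI totals behind shared names barely relate (Spearman's rho 0.069), so both libraries were kept. All 22040 barcodes listed for WT C are also the first of the 24603 listed for WT D, whereas the other 27 pairs of libraries share 0 to 6 cell names, and the reason was not tested. Leaving out WT C gave 383 calls within types and 53 over all cells, and leaving out WT D gave 369 and 43. The type label with most of a marker list was the same in both genotypes for 8 of 10 lists. Cells labelled Surface ectoderm ranked 7 for surface ectoderm markers, cells labelled Embryo proper mesothelium ranked 11 (null) and 10 (WT) for mesothelium markers, and Epicardium cells led the cardiomyocyte list. Branchial arch neural crest ranked 7 (null) and 8 (WT) for neural crest markers and 2 for limb bud markers, and Limb ectoderm ranked 1 in WT for gut endoderm markers, so these names are used only as the authors' labels.

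*Stat3* (chromosome 11, 100885098 to 100939540, GRCm38) was examined first. Over all cells but Erythroid it reached 2.04, 2.11, 2.49 and 2.29 CPM in null A to D and 6.54, 5.86, 6.08 and 6.11 CPM in WT A to D. No null library reached the lowest WT library (2.23 ± 0.201 against 6.15 ± 0.281, SD, n = 4 each), a difference of -3.92 CPM (exact two-sided permutation test, p = 0.0286, the smallest that 4 against 4 libraries can give). The libraries tag the 3′ end of transcripts, which can lie downstream of the replaced exons, so the counts left in null cells do not measure functional STAT3.

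Within types, *Stat3* was abundant enough to be tested in 13 and had a lower fitted mean in all 13, with the libraries of the genotypes apart in 12. A filter on low counts set which types were tested. In some, such as Ventral hindbrain progenitors (20 UMIs in null, 64 in WT) and Cranial mesoderm (25 and 67), *Stat3* passed it through the WT libraries. That it was lower in all 13 follows in part from that filter. *Stat3* was called in 8. A call here is an adjusted p under 0.05 (edgeR quasi-likelihood test on UMIs summed per library and type, Benjamini-Hochberg within the type) with an absolute log2 fold change over 1. Over 324660 gene by type tests in 37 types, 0.0641% were called lower and 0.0558% higher in null, and in 9.52% the libraries of the genotypes did not overlap. EMP cells, the erythro-myeloid progenitors of the yolk sac, held the highest WT level (mean 35.2 CPM), followed by Venous endothelium (19) and YS (yolk sac) mesothelium (13.4), and the spread of the WT libraries of EMP (30.7 to 37.0) lay above that of Venous endothelium (16.6 to 20.4). In EMP the 2 null libraries with enough cells held 6.16 (A) and 11.7 (D) CPM and the 4 WT libraries 36.9, 30.7, 37.0 and 36.0, a log2 fold change of -2.10 (SE 0.29, adjusted p = 0.0124 by edgeR). In Dorsal hindbrain progenitors, the exception, the libraries overlapped (-0.84, SE 0.39, adjusted p = 0.664 by edgeR).

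**Figure D1:**
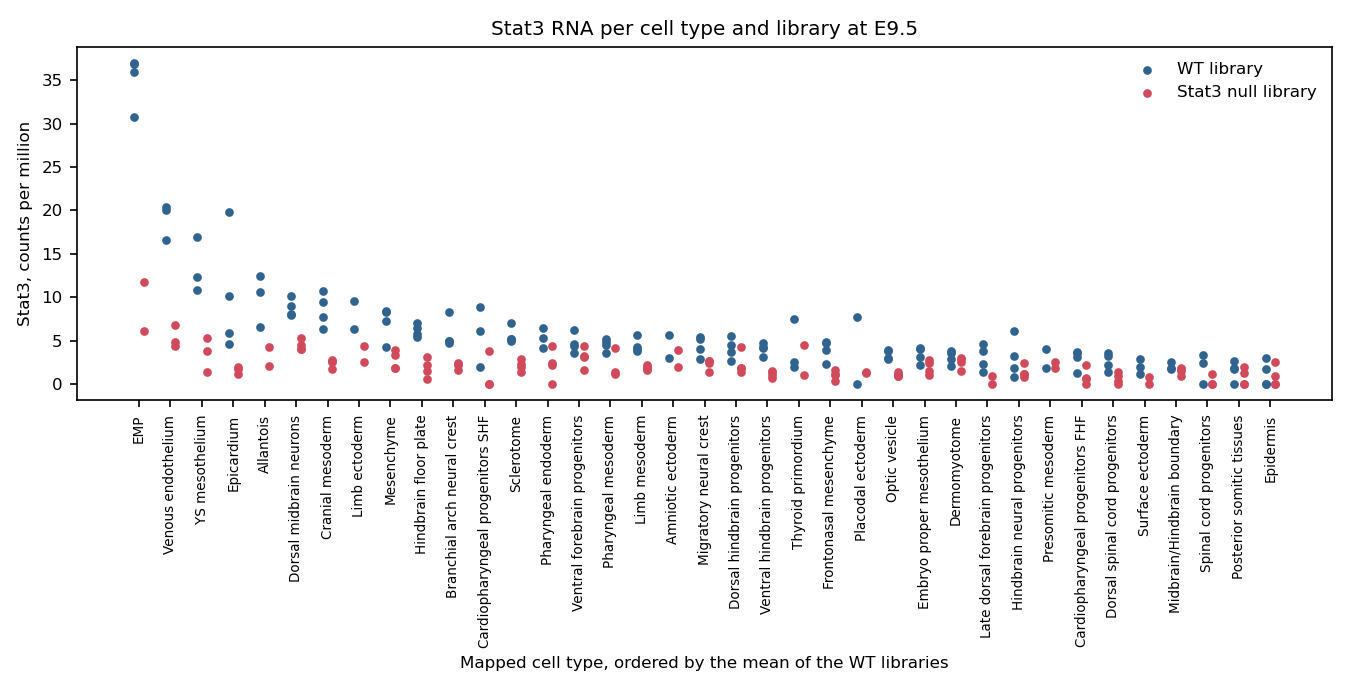
*Stat3* level (CPM, scaled to the total UMIs summed per library and cell type) in each E9.5 library of each tested type, with types ordered by their WT mean. EMP stands at the top with 30.7 to 37.0 CPM in WT against 6.16 and 11.7 in null libraries, and most types lie at a few CPM, where a library holds few *Stat3* UMIs.

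Few genes differed within types, and most of the calls were the same genes seen again in one type after another. The 37 tested types gave 389 calls, 208 lower and 181 higher in null, from 137 genes. Of these, 95 were called in 1 type and 12 in 2 types, while 30 genes called in 3 or more types made 270 of the calls. None of the 137 (0) was called in both directions, and the libraries of the genotypes were apart in 384 calls. The number of calls was largest in Sclerotome (26, 9 higher and 17 lower), the cells of the somite that form vertebrae and ribs, Frontonasal mesenchyme (21) and Optic vesicle (19), and smallest in Limb ectoderm (1). Sclerotome had 698 null and 790 WT cells and Limb ectoderm 78 and 53, but EMP, with 113 and 150 cells, had 16 calls and Placodal ectoderm, with 103 and 78, had 17.

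**Figure D2:**
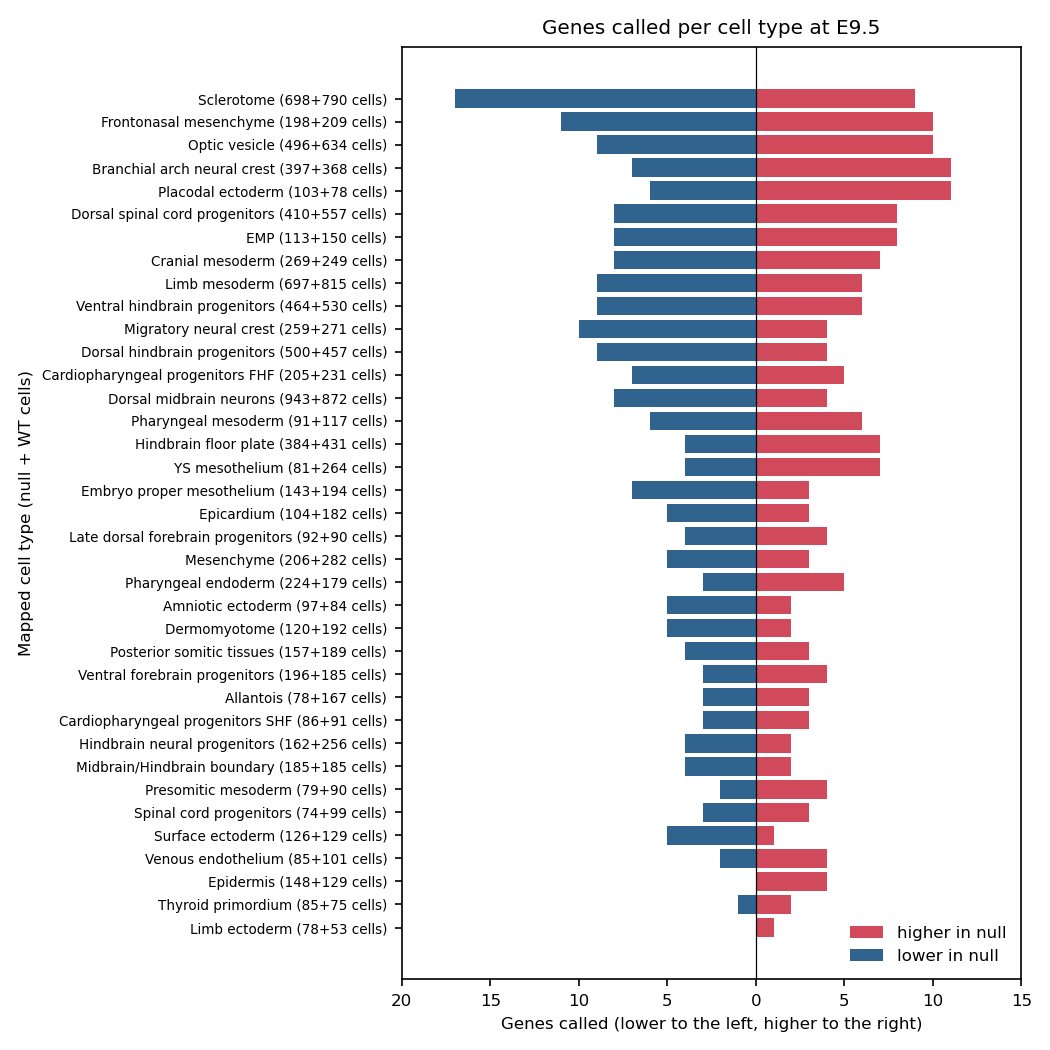
Number of genes called lower (left) and higher (right) in *Stat3* null libraries in each of the 37 E9.5 cell types tested. Sclerotome has the most calls (17 lower and 9 higher) and Limb ectoderm the fewest (1).

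Because the same genes recurred, they were also tested on counts summed over all cells but Erythroid, which gives each library 1 value per gene. There, 25 of 14833 genes were called lower (0.169%) and 16 higher (0.108%), and the libraries of the genotypes did not overlap for 3.73% of genes on the lower and 2.45% on the higher side. The 41 calls include *Alas2* and *Hemgn*, genes of red blood cells, which lie beside the haemoglobin sums given above, and with blood and endothelial types taken out there were 33 calls, 31 of them among the 41. Without null C the number was 26, and DESeq2 made 82 calls, 21 higher and 61 lower.

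Of 12661 genes tested in at least 1 type 137 (1.08%) were called in at least 1, among them 2 of 15 maternally and 6 of 26 paternally expressed imprinted genes on the lists, and the largest recurrent falls were those of *Grb10* and *H19*. *Grb10* (chromosome 11, 11930508 to 12038683), a maternally expressed adaptor that binds the insulin and IGF1 receptors and restrains growth, reached 12, 22.4, 9.98 and 9.85 CPM in null A to D and 363, 368, 377 and 359 CPM in WT A to D. The null libraries lay far below the WT libraries and no library fell between, a log2 fold change of -4.74 (SE 0.28, adjusted p = 0.000121 by edgeR). It was called in 30 of 37 types and its libraries were apart in all 37, with log2 fold changes from -7.47 in Presomitic mesoderm to -2.69 in Thyroid primordium. Each of these types had only 2 null libraries, A and D in Presomitic mesoderm and A and B in Thyroid primordium. The range therefore does not show that the fall of *Grb10* differs between them. In Sclerotome it held 7.91, 7.33, 6.86 and 3.86 CPM in null and 400, 376, 383 and 406 in WT libraries. In Amniotic ectoderm the 2 null libraries disagreed, with 3.30 (A) and 172 (B) CPM against 665 and 844 in WT, and the gene was not called there (adjusted p = 1 by edgeR). Null B was the highest null library over all cells and also in Migratory neural crest (39.0 CPM against 3.10 to 11.3 in the other null libraries). Cells of the null gate without a tdTomato UMI had been kept as null. Null B had the lowest share of singlets with a tdTomato UMI (96.1%) and the most *Xist* among null libraries (28.9 CPM). Whether host cells in the null gate add to its *Grb10* was not tested.

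*H19* (chromosome 7, 142575529 to 142578143), a maternally expressed non-coding RNA, reached 14.3, 26.9, 17.7 and 113 CPM in null A to D and 518, 471, 513 and 727 in WT A to D. No null library reached the WT range, but null D stood above the other null libraries, and the log2 fold change of -3.69 (SE 0.71) did not pass over all cells (adjusted p = 0.083 by edgeR). Without null D the log2 fold change was -4.81 and passed. Within types *H19* was lower in all 37 and called in 9. The largest fold change was in the Cardiopharyngeal progenitors SHF, where null A, B and C held 5.23, 10.5 and 6.76 CPM and WT B, C and D 907, 941 and 951 (log2 fold change -6.98, SE 0.18, adjusted p = 4.47e-22 by edgeR). Null D and WT A had too few cells of this type to enter. The value therefore lacks the null library with the most *H19* over all cells and does not show a larger fall in this type.

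*Igf2* (chromosome 7, 142650766 to 142666816), the paternally expressed growth factor gene next to *H19*, moved the other way. It reached 353, 347, 352 and 408 CPM in null and 206, 190, 185 and 252 in WT libraries, higher in every null library, with a log2 fold change of 0.82 (SE 0.10, adjusted p = 0.00826 by edgeR) that lies under the fold threshold of a call. It was higher in all 37 types and called in 4, Placodal ectoderm (1.55), Cranial mesoderm (1.15), Pharyngeal mesoderm (1.08) and Allantois (1.04). Without WT B and C, the libraries with *Xist*, its adjusted p over all cells no longer passed at a log2 fold change of 0.68, nor did it when the change was averaged over types (0.77).

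The fixed list of maternally expressed imprinted genes had 17 members measured over all cells, of which 1 was called lower (*Grb10*) and none (0) higher by edgeR. Their median log2 fold change was -0.00828 beside -0.00106 over all genes tested. In 487 type tests of the list 39 calls were made, 30 of *Grb10* and 9 of *H19*, all lower. *Igf2r*, which encodes the receptor that clears IGF2, and *Cdkn1c*, a cell cycle inhibitor, had log2 fold changes of -0.04 and 0.13 with overlapping libraries. *Meg3*, a non-coding RNA of the *Dlk1* region, had -0.16.

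Of 26 paternally expressed imprinted genes, 5 were higher in null at an adjusted p under 0.05 over all cells with any fold change, as were 0.431% of all genes tested, and 1 of them, *Zdbf2*, was called. *Zdbf2* (chromosome 1, 63273265 to 63314576), a growth-promoting gene, reached 149, 148, 131 and 147 CPM in null and 70.5, 72.8, 68.0 and 71.5 in WT libraries, a log2 fold change of 1.04 (SE 0.05, adjusted p = 2.18e-05 by edgeR), and was called in 20 types. No null library came near a WT library. *Slc38a4*, an amino acid transporter, reached 52.1, 60.7, 58.6 and 68.9 CPM in null and 31.2, 29.8, 32.2 and 36.2 in WT libraries (log2 fold change 0.90, SE 0.10, adjusted p = 0.00256 by edgeR), and was called in 5 types. *Nap1l5* (0.93) and *Impact* (0.60) were higher in every null library too, at edgeR adjusted p of 0.00844 and 0.00913. The list made 32 calls higher and 2 lower in 756 type tests, and its median over all cells was -0.00455.

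The 2 lower calls were of *Nnat*, a paternally expressed gene of neural and endocrine cells, in Amniotic ectoderm (log2 fold change -2.42) and Presomitic mesoderm (-1.26). Over all cells it held 200, 20.5, 455 and 244 CPM in null A to D and 422, 455, 472 and 385 in WT A to D. Null B was far below and null C among the WT libraries, so the groups overlapped (log2 fold change -0.91, SE 0.70, adjusted p = 0.778 by edgeR). *Mest*, *Peg3*, *Dlk1* and *Kcnq1ot1*, abundant genes of the same class, had log2 fold changes of 0.08, -0.03, 0.08 and 0.01 with overlapping libraries.

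**Figure D3:**
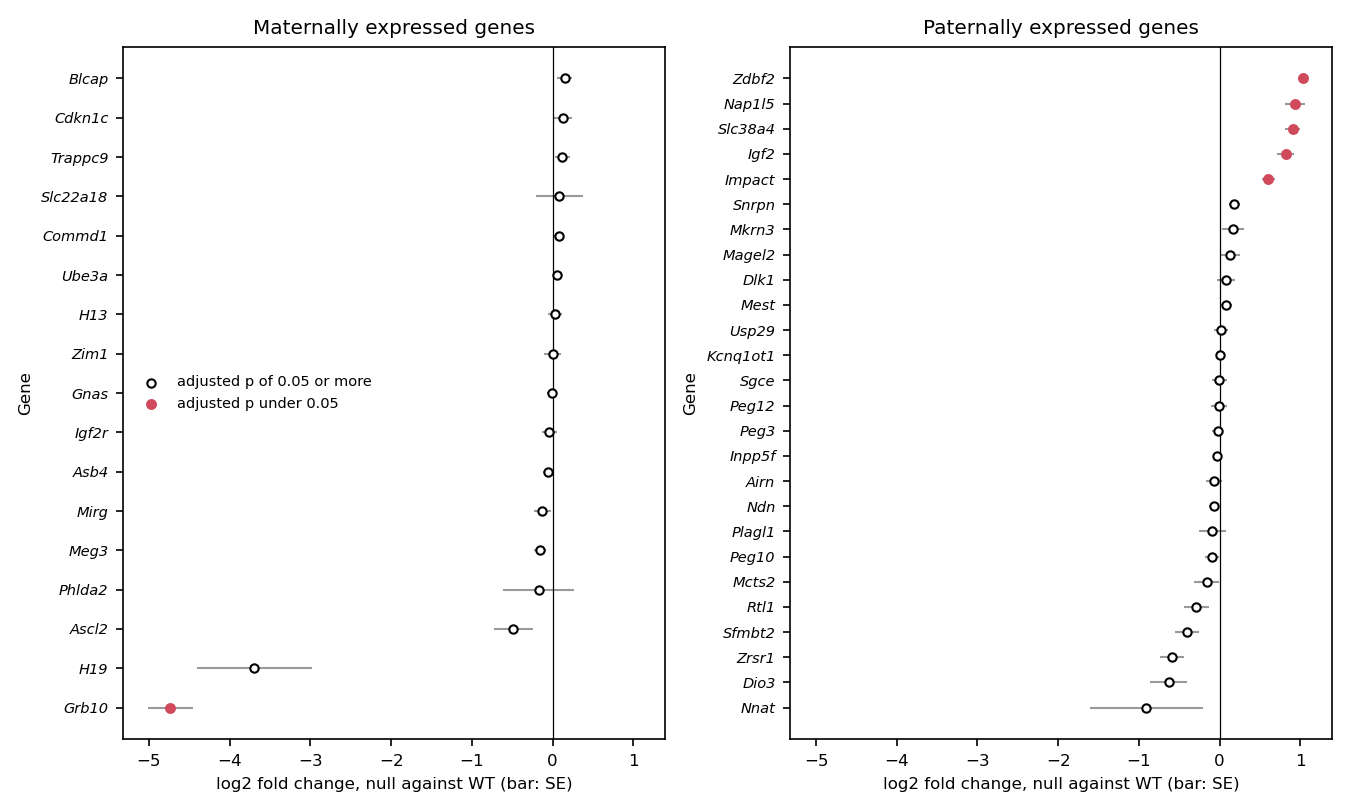
Log2 fold change of null over WT (points, with SE as bars, edgeR fit over all cells but Erythroid) for 17 maternally and 26 paternally expressed imprinted genes. *Grb10* (-4.74) and *H19* (-3.69) lie far to the left among the maternally expressed genes, and *Zdbf2* (1.04), *Nap1l5* (0.93), *Slc38a4* (0.90) and *Igf2* (0.82) to the right among the paternally expressed ones.

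The genes of the IGF system were examined as a group, because *Igf2* and *Grb10* belong to it. In 359 type tests 5 calls were higher and 32 lower, and 30 of the 32 were *Grb10*. The growth factor *Igf1* and the receptor *Igf1r* had log2 fold changes of 0.23 and -0.04 over all cells with overlapping libraries. *Igfbp3*, an IGF binding protein, fell in Amniotic ectoderm, with 5.28 and 10.5 CPM in null and 53.4 and 79.4 in WT libraries (log2 fold change -3.26, SE 0.36, adjusted p = 1.11e-05 by edgeR), and in Limb mesoderm, with 2.56 to 3.86 against 6.90 to 12.3 CPM (-1.44). *Igfbp5*, another of these binding proteins, rose in Late dorsal forebrain progenitors, with 151 and 147 CPM in null against 33.5 to 72.7 in WT libraries (1.35, SE 0.18, adjusted p = 3.51e-05 by edgeR). Neither gene kept its direction in all types. *Igfbp3* was lower in 15 and higher in 9 of 24 types, and *Igfbp5* higher in 23 and lower in 14 of 37. The libraries of both overlapped over all cells. Over all 14 genes of the system the median log2 fold change was -0.04.

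The gene called in the most types was *Cwc22* (chromosome 2, 77881159 to 77946375), a splicing factor of the exon junction complex. It reached 174, 154, 168 and 165 CPM in null A to D and 39.1, 37.1, 38.8 and 37.8 in WT A to D, a log2 fold change of 2.13 (SE 0.04, adjusted p = 4.33e-09 by edgeR). It was called in 37 of 37 types, with type means between 137 and 208 CPM in null and between 31.9 and 44.9 in WT. *Cwc22* lies in a stretch of chromosome 2 whose copy number varies among mouse stocks, and reads of near-identical copies cannot be told apart by such counts.

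*Fam196b* and *Trhde* were nearly silent in WT cells. *Fam196b* (chromosome 11, 34314822 to 34422640) reached 4.01, 5.20, 3.06 and 5.63 CPM in null and 0.305, 0.245, 0.244 and 0.271 in WT libraries (log2 fold change 4.07, SE 0.23, adjusted p = 2.53e-05 by edgeR) and was called in 9 of 9 types tested. WT libraries held 0 to 13 of its UMIs in a type, so it passed the filter on low counts through the null libraries, and its being called in the types tested follows in part from that filter. In Branchial arch neural crest it had 112 UMIs in null and 0 in WT libraries, at least 29.7-fold higher against a floor of 3 counts over the group, and in Frontonasal mesenchyme 72 and 0, at least 19.7-fold higher. The median log2 fold change over the 9 types was 5.17, and 4.6 with these types at their bounds. *Trhde* (chromosome 10, 114398823 to 114802307), which encodes an ectoenzyme that degrades thyrotropin-releasing hormone, reached 3.74, 2.73, 2.58 and 3.57 CPM against 0.251, 0.245, 0.219 and 0.163 (3.86, SE 0.20, adjusted p = 2.42e-05 by edgeR) and was called in 5 of 5 types. *Trhde* too had only 1 to 6 WT UMIs in a type and passed the filter through the null libraries.

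Other genes fell in many types. *Hist1h4i* (chromosome 13, 22040636 to 22041362), a histone H4 gene, reached 13.1, 13.1, 15.4 and 12.8 CPM in null and 40.5, 37.3, 65.8 and 59.8 in WT libraries (log2 fold change -1.89, SE 0.19, adjusted p = 0.0031 by edgeR) and was called in 22 of 37 types. WT C and D lay above WT A and B over all cells, while the null libraries lay close together. *Pusl1* (chromosome 4, 155887879 to 155891781), a pseudouridine synthase-like gene, reached 5.14, 7.15, 6.63 and 6.83 CPM in null and 16.1, 19, 24.3 and 28.8 in WT libraries (-1.77, SE 0.20, adjusted p = 0.00533 by edgeR), and was called in 23 of 32 types. Histone genes are near-identical, so reads of *Hist1h4i* may be split among copies.

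The aldo-keto reductases *Akr1e1* and *Akr1b8*, enzymes that reduce aldehydes and ketones, were lower in every type that tested them. *Akr1e1* was called in 14 of 29 types (median log2 fold change -2) and *Akr1b8* in 10 of 15 (-2.56). *Akr1b8* held 1.98, 1.89, 2.08 and 1.86 CPM in null and 6.86, 9.79, 9.31 and 9.70 in WT libraries (-2.18, SE 0.13, adjusted p = 3.80e-05 by edgeR), and it was called in all 5 neural tube types that tested it. Ventral hindbrain progenitors held 9 of its UMIs in null and 124 in WT libraries, and Dorsal midbrain neurons 206 and 674. Where null UMIs were few, *Akr1b8* passed the filter on low counts through the WT libraries. That it was lower in every type tested follows in part from that filter. *Msrb2*, which repairs oxidised methionine in mitochondria, was called in 8 of 17 types (-1.64). *Zfp458*, a zinc finger gene whose promoter window is shown above, was called in 3 of 6 types, at 1.56, 1.50, 1.68 and 1.32 CPM in null against 4.15, 4.11, 4.49 and 4.05 in WT libraries (-1.46, SE 0.10, adjusted p = 0.000132 by edgeR). In Sclerotome it had 27 UMIs in null and 92 in WT libraries, and it too passed the filter on low counts there through the WT libraries. *Akr1e1* over all cells no longer passed when null B, C or D was left out.

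*Col5a2*, a fibrillar collagen chain, was called lower in 5 of 33 types (median log2 fold change -1.10) and *Pttg1*, the securin that holds sister chromatids together until anaphase, in 5 of 37 (-0.74). *Pttg1* held 69.6, 71.5, 112 and 133 CPM in null A to D and 159, 155, 161 and 155 in WT A to D, so the null libraries were spread widely below WT libraries that lay close together (-0.69, SE 0.20, adjusted p = 0.256 by edgeR). *Tpm3-rs7*, a sequence related to the tropomyosin gene *Tpm3*, was called in 5 types, and its libraries were apart in all 37 (84.5 to 93.2 against 162 to 173 CPM over all cells). Reads of *Tpm3-rs7* may be shared with its parent gene.

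Among the genes higher in null, *Phtf2* was called in 6 of 37 types (median log2 fold change 0.81), *Dph7*, an enzyme of diphthamide synthesis, in 8 of 21 (1.13), *Fggy*, a carbohydrate kinase, in 5 of 20 (1.57), *Cisd3*, a mitochondrial iron-sulphur protein, in 4 of 31 (0.95), and the histone gene *Hist2h2ac* in 4 of 37 (0.84). *Dph7* over all cells stood at the threshold (log2 fold change 1.24, adjusted p = 0.04998 by edgeR) and no longer passed without any 1 null library or without WT B, C or D. *Fggy* held 7.03, 6.35, 8.15 and 7.51 CPM in null and 1.53, 1.20, 5.63 and 1.26 in WT libraries, with WT C close to the null libraries, and was not called over all cells (adjusted p = 0.265 by edgeR). *Tc2n*, called in 3 of 8 types, held 31.0 and 31.3 CPM in null against 0.928 and 2.43 in WT libraries of Presomitic mesoderm (4.07, SE 0.49, adjusted p = 0.00199 by edgeR). It had 70 UMIs in null and 4 in WT libraries there, and 102 and 11 in Ventral hindbrain progenitors. In both types *Tc2n* passed the filter on low counts through the null libraries, so these calls follow in part from that filter. In 2 of the 8 types its fold change had the other sign, without a call (Posterior somitic tissues -1.34, Dermomyotome -0.64), and over all cells its libraries overlapped.

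**Figure D4:**
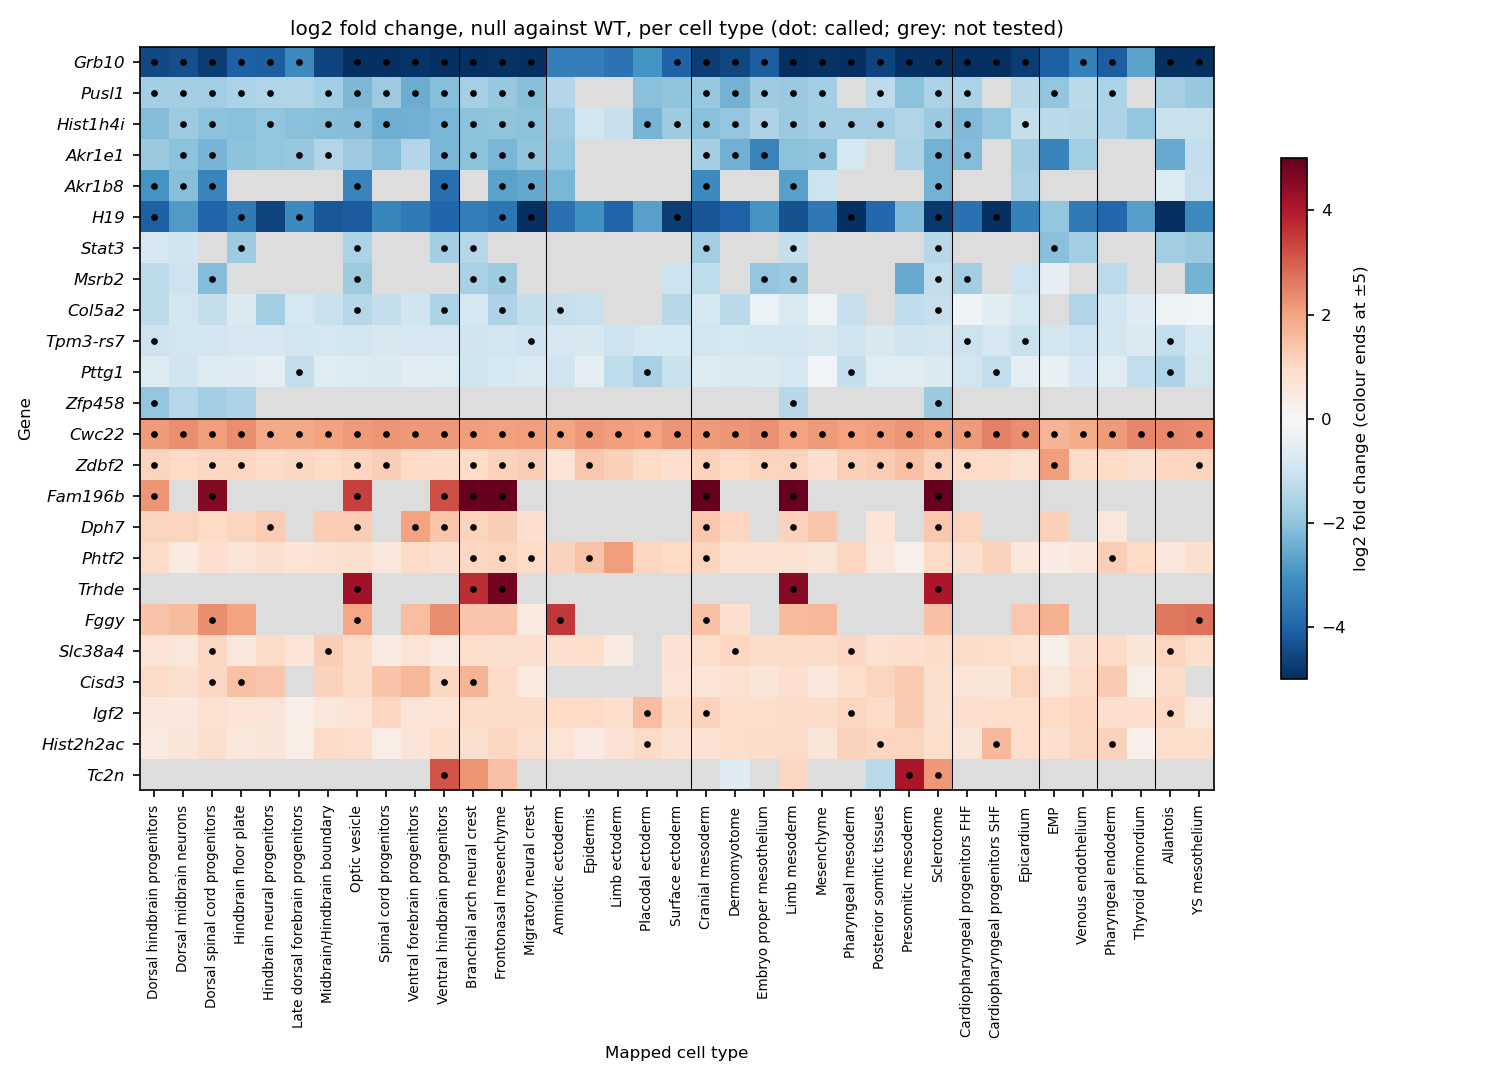
Log2 fold change of null over WT (colour, ending at 5 in both directions) of the 24 recurrent genes in the 37 cell types, grouped by class. A dot marks a call and grey a gene not tested, and *Cwc22* and *Grb10* keep their colour in every type.

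**Figure D5:**
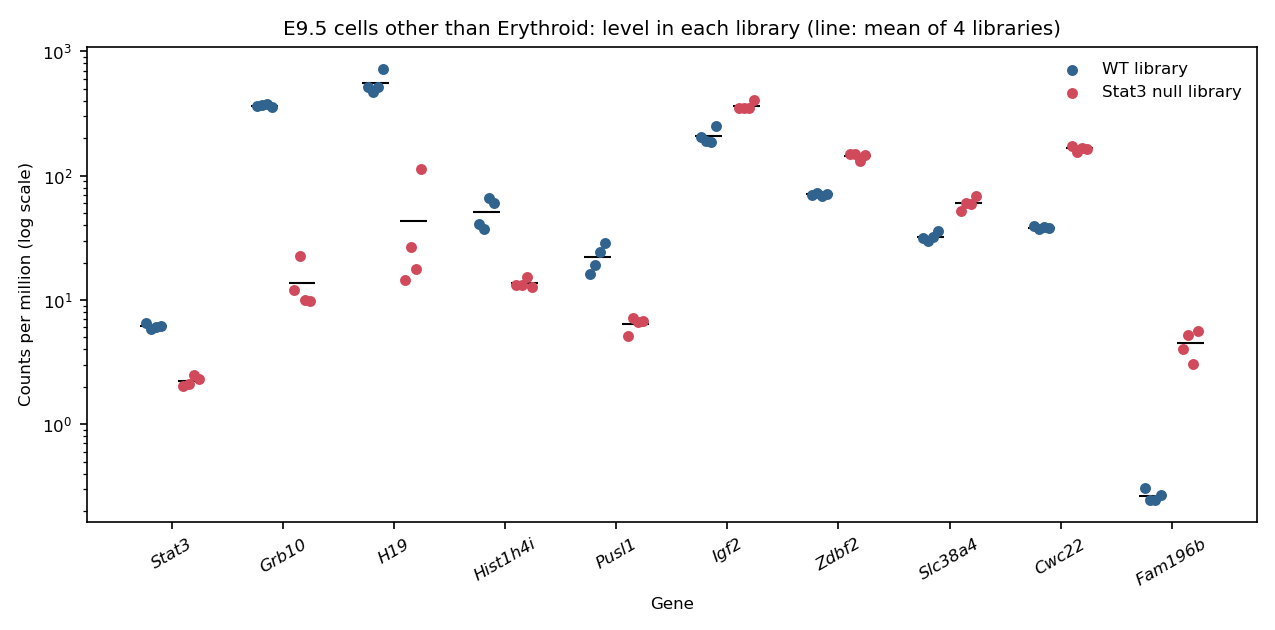
CPM on a log axis in each of the 8 E9.5 libraries (points) over all cells but Erythroid for 10 genes, with the mean of a genotype as a line. The 4 null libraries lie beyond the 4 WT libraries for each gene, and null D stands above the other null libraries for *H19*.

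The 24 recurrent genes are a choice of at most 12 a direction from the 30 called in 3 or more types. Of these 24 genes 5 lie on chromosome 11, which also carries *Stat3* (*Grb10*, *Fam196b*, *Pttg1*, *Cisd3* and *Stat3* itself), or 20.8%, against 14.0% of all called genes and 8.10% of genes tested in a type. Around *Stat3*, a fixed list of its neighbours had 46 members measured over all cells, of which none (0) was called by edgeR, at a median log2 fold change of -0.02. In 957 type tests 2 neighbours were called, both higher, *Krt19* in Placodal ectoderm (32.9 and 32.2 against 15.2 and 6.65 CPM), which in Surface ectoderm was lower under the fold threshold (log2 fold change -0.97), and *Rnd2* in YS mesothelium (24.5 to 52.6 against 13.1 to 14.4 CPM).

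Several genes called over all cells were rare RNAs. *Klrk1*, a receptor of natural killer cells, held 0.195, 0.252, 0.232 and 0.290 CPM in null libraries and 0, 0, 0 and 0.0181 in WT libraries, where it had 2 UMIs in all, a ratio of null to WT of 41.4 (95% counting interval 11.1 to 347). *H2-Eb1*, an MHC class II gene, held 1.01 to 1.31 against 0.144 to 0.251 CPM, and CT030657.2 held 0.142 to 0.246 against 0.009 to 0.0257. On the lower side *Xlr3b*, an X-linked member of a family of near-identical copies, held 0.058 to 0.159 CPM in null and 0.939 to 4.31 in WT libraries. *Ifi211*, an interferon-inducible gene, held 0.0329 to 0.082 against 0.605 to 2.30 CPM. *Klrk1* and CT030657.2 passed the filter on low counts through the null libraries and *Ifi211* through the WT libraries. That these genes were tested and called follows in part from that filter. When the fold change was averaged over types instead, *Xlr3b* lost its call (log2 fold change of -1.86) and *Ifi211* went to 0.01. That average covers the 20 types with more than 15 cells in all 8 libraries. EMP, the only type with enough *Ifi211* to be tested, is not among them, so the value for *Ifi211* leaves out its main source.

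*Ttll6*, which adds glutamate chains to tubulin of cilia and axons, was one such gene, and only 1 type had enough of it to be tested. In Dorsal midbrain neurons it held 0.0785, 0.367, 0 and 0 CPM in null and 9.44, 8.99, 6.33 and 3.89 in WT libraries (log2 fold change -5.78, SE 0.54, adjusted p = 2.55e-05 by edgeR). No null library came near a WT library, and 3 UMIs were counted in null against 158 in WT cells, a ratio of null to WT of 0.0146 (95% counting interval 0.00297 to 0.0433). *Ttll6* passed the filter on low counts through the WT libraries, so its being called in the type tested follows in part from that filter.

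Few other genes of the STAT3 pathway were called. Of the 7 STAT genes *Stat3* alone was called over all cells. Of the 9 gp130 receptors and JAK kinases measured, none (0) was called by edgeR over all cells or in 188 type tests, and the receptor *Il6st* (gp130), its partner *Lifr* and the kinase *Jak1* had log2 fold changes of -0.13, -0.18 and -0.02 with overlapping libraries. Of 14 feedback and target genes none (0) was called over all cells, at a median of -0.05. *Socs3*, the classic feedback inhibitor, held 7.43, 9.23, 10.2 and 9.90 CPM in null and 11.3, 10.1, 9.53 and 9.29 in WT libraries (log2 fold change -0.12, SE 0.11, adjusted p = 0.832 by edgeR). *Myc*, *Mcl1* and *Bcl2l1*, known STAT3 targets of growth and survival, had -0.12, 0.03 and -0.09, and 10 LIF-dependent pluripotency factors had a median of -0.10 with no call (0). That edgeR made no call does not show that these genes are equal. Over the STAT family 8 type calls were made in 66 tests, all of *Stat3*.

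Both type calls of the feedback and target genes, in 367 tests, were made in EMP, the type with the most *Stat3*. *Pim1*, a survival kinase, held 46.5 and 59.5 CPM in null A and D and 167, 227, 141 and 231 in WT A to D, both null libraries below all WT libraries (log2 fold change -1.88, SE 0.26, adjusted p = 0.047 by edgeR). Over all cells *Pim1* had a log2 fold change of 0.03 with overlapping libraries. *Ccnd1*, a cyclin that drives entry into the cell cycle, held 154 and 93.0 CPM against 48.5, 43.4, 25.9 and 37.0 and was higher (1.69, SE 0.24, adjusted p = 0.0369 by edgeR). *Ifitm1*, an interferon-inducible membrane protein, held 6.51 and 10.9 CPM against 39.8, 48.1, 46.6 and 51.1 (-2.51, SE 0.27, adjusted p = 0.00269 by edgeR), and *Ifi211* was lower as well (-4.67, SE 0.64, adjusted p = 0.0495 by edgeR). *Ifi211* had 8 UMIs in null and 375 in WT libraries there and passed the filter on low counts through the WT libraries. *Zdbf2* rose there with a log2 fold change of 2.08.

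EMP had 113 null and 150 WT cells, and only null A and D had over 15 cells, so that without either of them EMP could not be tested. The embryonic globin RNA *Hbb-y* in these cells was 772 CPM in null A and 18.4 in null D against 124 to 500 in the WT libraries, so the 2 null libraries differed in red cell RNA. *Gata1*, a factor of erythroid and megakaryocytic cells, held 4.10 and 7.54 CPM in null against 11.8 to 18.8 in WT libraries, and *Itga2b*, an integrin of megakaryocytes and early progenitors, 12.3 and 14.2 against 21.4 to 44.3, both without overlap, while *Kit*, *Runx1*, *Ptprc*, *Spi1* and *Cd34* overlapped. The part of these differences in the EMP calls was not tested. Apart from *Stat3* and the EMP calls of the paragraph above, EMP gave 10 more calls. *Cwc22*, called in every type, is among them, and 3 others are named here after their values were seen. *Csf2rb*, the shared receptor chain for the cytokines IL-3, IL-5 and GM-CSF, held a mean of 3.99 ± 2.09 CPM in null and 34.3 ± 13.7 in WT libraries (SD, n = 2 and 4, adjusted p = 0.0326 by edgeR), *Hp* (haptoglobin) 17.6 ± 7.05 and 83.3 ± 15.6 (adjusted p = 0.00565 by edgeR), and *Cd69*, a leukocyte activation marker, 13.7 ± 6.30 and 0.859 ± 1.23 (adjusted p = 0.047 by edgeR).

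Lists of other cell programmes gave few or no calls. None (0) of 24 glycolysis and hypoxia genes, 40 subunits of oxidative phosphorylation, 25 cell cycle genes, 13 genes of cell competition and Myc, 13 immediate early and heat shock genes, 12 genes of DNA methylation and imprint maintenance and 5 genes that escape X inactivation was called by edgeR over all cells or in any type. Their medians over all cells were 0.06, 0.02, -0.01, -0.09, -0.11, -0.04 and -0.21. Among 22 interferon-type and MHC class I genes the 1 type call was that of *Ifitm1* in EMP. Of 18 p53 genes none (0) was called over all cells, at a median of 0.13, and 2 were called higher in 1 type each. *Ccng1* (cyclin G1) in Epicardium held 20.9, 33.6 and 52.0 CPM in null A, C and D and 9.24 to 14.2 in WT libraries (log2 fold change 1.52, SE 0.29, adjusted p = 0.0177 by edgeR). *Eda2r*, a death receptor, held 8.21, 10.5 and 8.5 against 0.653 to 1.36 CPM in YS mesothelium (2.99, SE 0.59, adjusted p = 0.0234 by edgeR). No other type had enough *Eda2r* to be tested. With 23 UMIs in null and 7 in WT libraries, it passed the filter on low counts through the null libraries. Its being called in the type tested follows in part from that filter. *Ccng1* was higher in every null library over all cells (16.1 to 22.5 against 10.5 to 15.3 CPM) but did not pass (0.53, adjusted p = 0.164 by edgeR).

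Of 10 genes of the *Zfp979* to *Zfp988* zinc finger cluster on chromosome 4, none (0) was called over all cells by edgeR, and 3 were called higher in 1 type each. *Zfp979* in Branchial arch neural crest held 9.84, 9.16, 9.74 and 11.8 CPM in null and 2.59, 2.34, 0.278 and 3.84 in WT libraries (log2 fold change 2.07, SE 0.32, adjusted p = 0.00128 by edgeR). *Zfp984* in Frontonasal mesenchyme (1.82) and *Zfp985* in Optic vesicle (1.92) were the other two. WT C was nearly without these genes over all cells (0.0514, 0.476 and 0.283 CPM, against 2.78 to 4.67 CPM in the other WT libraries), and without WT C they passed over all cells at log2 fold changes of 1.23, 0.90 and 0.91.

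In Placodal ectoderm, the thickened surface ectoderm from which sense organs form, the called gene with the largest change was *Fbxo2*, a ubiquitin ligase subunit, at 3.70 and 0 CPM in null against 15.2 and 18.8 in WT libraries (log2 fold change -2.60, SE 0.63, adjusted p = 0.0342 by edgeR). *Fbxo2* had 9 UMIs in null and 31 in WT libraries there. It passed the filter on low counts through the WT libraries, so its call follows in part from that filter. It was tested in 2 types and over all cells its libraries overlapped. Only 2 libraries a genotype had enough cells of this type.

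The difference between null and WT cells was set beside that at E8.5, where 2 null and 2 WT libraries of other embryos exist. The sample labels give several embryos to each E8.5 pool but a single embryo to each E9.5 pool. An E8.5 library can therefore mix the sexes and alleles of several embryos, and the libraries of the stages are not like units. Of 15262 genes 2 (0.0131%) differed between the stages (edgeR interaction, adjusted p under 0.05), while 340 fell under 0.05 before adjustment, and 11 passed with DESeq2. *Cwc22* was among them, with 94.3 and 131 CPM in null and 64.4 and 67.0 in WT libraries at E8.5, a log2 fold change of 0.78 against 2.13 at E9.5 (difference 1.35, SE 0.14, adjusted p = 0.00817 by edgeR). The WT level fell and the null level rose from one stage to the next, though the stages are different embryos. The second, *Pde1c*, a phosphodiesterase named here after its values were seen, was lower in null at E8.5 (2.03 and 1.96 against 7 and 7.32 CPM, -1.84) and had a log2 fold change of 0.11 at E9.5 (difference 1.95, SE 0.21, adjusted p = 0.00817 by edgeR). Without E8.5 null B *Pde1c* no longer passed (adjusted p = 0.0954 by edgeR), and without E8.5 WT A or WT B neither did (adjusted p = 0.0624 and 0.0603 by edgeR).

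*Grb10* at E8.5 held 15.6 CPM in null A but 289 in null B, against 302 and 300 in the WT libraries, and *H19* held 267 and 26.5 against 585 and 497. One null library of E8.5 was thus near the WT level for *Grb10* while the other was near the E9.5 null level, and the reverse order held for *H19*. The change in difference between the stages did not pass for either (-3.76 and -1.81, adjusted p = 1 by edgeR for both). *Fam196b* and *Trhde* had log2 fold changes at E8.5 (3.67 and 3.75) near those at E9.5 (4.07 and 3.86), as did *Zdbf2* (0.92), *Hist1h4i* (-1.67) and *Stat3* (-1.63). Other recurrent genes changed less at E8.5, such as *Akr1b8* (-1.15 against -2.18 at E9.5) and *Zfp458* (-0.43 against -1.46). *Akr1e1* (-2.39 against -2.13) and *Cisd3* (1.10 against 0.94) changed more there. The change between the stages did not pass for any of these genes.

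The difference was also compared between the neural tube and the mesoderm within each library, over 8 neural and 7 mesodermal types with enough cells in all 8 libraries. None (0 of 11923, 0%) passed at an adjusted p under 0.05 by limma, and 647 had an unadjusted p under 0.05. *Grb10* differed by -4.98 on the log2 scale in neural and -5.08 in mesodermal types and *Cwc22* by 2.14 and 2.11. *Igf2* differed by 0.55 and 0.92 (limma adjusted p for the contrast = 0.996).

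Abundance was compared last, as the share of a library's cells in each type. Of 70 types other than Erythroid none (0, 0%) differed in abundance by edgeR at an adjusted p under 0.05, and 3 of 71 types with Erythroid included had an unadjusted p under 0.05. Mesodermal types held 28.6% ± 3.87 of the cells of null libraries and 27.5% ± 4.19 in WT libraries, neural tube types 39.4% ± 2.42 and 39.1% ± 9.40, and neural crest types 8.48% ± 0.722 and 7.32% ± 0.680 (SD, n = 4 each). The exact two-sided permutation test gave p = 0.971 for neural tube and 0.0857 for neural crest, and no class differed after adjustment (0.771 for neural crest). Parietal endoderm, an extra-embryonic layer, had 0 null and 24 WT cells (adjusted p = 0.0649 by edgeR). Its share was 0.227% in WT A and 0.430% in WT D and 0 in WT B and C, as in every null library, and it passed with no minimum of cells and when WT B, WT C or both, which held none, were left out. The paper states that another extra-embryonic layer, the anterior visceral endoderm, comes from the host in conventional chimeras. A lack of null cells in Parietal endoderm therefore cannot be told apart from a host origin of that layer, which was not tested. ExE (extra-embryonic) endoderm had 29 null and 9 WT cells (adjusted p = 0.963 by edgeR). Its share was 1.63% in null C but 0.0231%, 0.083% and 0% in null A, B and D, so its null cells came mostly from a single library. YS mesothelium, 81 null and 264 WT cells, was lower in null with a log2 fold change of -1.16 (adjusted p = 0.157 by edgeR), and passed without WT C and without WT B and C together.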

How the data were processed

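Single cells of sorted chimeras were profiled with 10x Genomics 3′ chemistry. The authors deposited raw UMI counts per gene and cell, made with Cell Ranger against mm10 with the tdTomato sequence added, together with a table of cells that holds their RNA filter, doublet calls and cell type labels transferred from a gastrulation atlas. The percent of mitochondrial RNA per cell in that table is also as the authors deposited it. The table listed 192657 barcodes and the matrix held 41832 cells. Counts were summed here per library and cell type. A library entered a type with more than 15 cells, and a type was tested with at least 2 libraries of each genotype.

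The tests left out tdTomato, *Xist* and *Tsix*, predicted genes, and the genes of haemoglobin, ribosomal proteins, the mitochondrion and the Y chromosome (8182 of 29453 genes), while imprinted genes were kept. Tests used edgeR 4.0.16 (filterByExpr, TMM, robust quasi-likelihood fit, Benjamini-Hochberg adjustment over all genes of a fit) in R 4.3.3. The contrast of neural and mesodermal types used limma 3.58.1 on mean log2 CPM with a prior count of 2. DESeq2 1.42.0 was an alternative. A call needed an adjusted p under 0.05 and, for genes, an absolute log2 fold change over 1. Abundance was tested on cells per type with at least 20 cells. SEs are the log2 fold change divided by the root of the F statistic. Counting intervals and floors cover counting error only. The fits were tested on simulated data.

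Genes were named by rule: up to 12 a direction called in at least 3 types, taken by number of types; the leading called gene of each of the 8 types with the most calls; the 5 largest calls a direction over all cells; and any called member of a list. A gene that this rule names is not reported here. The cells, gene lists and rules were chosen with earlier results of these data known. The design of the study has embryo pool as a term, which was not fitted here because the library names do not give the pool.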

Additional observations from a re-analysis of the deposited data

Results flagged for a closer look

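Among groups of 4 libraries, 13 of 110 had 1 library far from the other three (Dixon's test), where chance alone gives about 1 in 20. All values are CPM over all cells but Erythroid. Of the recurrent and imprinted genes, *H19* stood at 113 in null D against 14.3 to 26.9 in the other null libraries, and *Igf2* at 408 in the same library against 347 to 353. *Zdbf2* stood at 131 in null C against 147 to 149, and *Hist1h4i* at 15.4 in null C against 12.8 to 13.1. None of these far libraries reached the WT range.

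WT C held 5.63 of *Fggy* against 1.20 to 1.53 in the other WT libraries, 0.0514 of *Zfp979* against 4.03 to 4.42, and 0.476 of *Zfp984* against 4.13 to 4.67. WT A held 6.86 of *Akr1b8* against 9.31 to 9.79, 6.98 of *Dph7* against 3.27 to 3.84, and 2.30 of *Ifi211* against 0.605 to 0.733. *Dph7* also stood low in null A, at 8.81 against 10.8 to 11.2. *Klrk1* was at 0.0181 in WT D and at 0 in the other WT libraries. The haemoglobin sum was 10.5 in null B against 112 to 120 in the other null libraries.

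The null effect of *Cwc22* was larger at E9.5 than at E8.5 by 1.35 on the log2 scale, and that of *Pde1c* differed by 1.95 (edgeR interaction, adjusted p = 0.00817 for both), with 2 null and 2 WT libraries at E8.5.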

How the results depend on the processing

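Within types, 389 calls became 1194 without the filter on low counts, 880 without the fold threshold, 256 in the 20 types with over 15 cells in all 8 libraries and 206 with over 50 cells per library. Leaving out 1 library gave 323 to 395. Over all cells, 41 calls became 82 with DESeq2, 117 without the fold threshold and 20 when averaged over types, and leaving out 1 library gave 26 (without null C) to 53 (without WT C). DESeq2 called 25.6% of its genes higher in null, against 39.0% for edgeR. Without the fold threshold the balance turned to more genes higher in null. There were then 64 higher and 53 lower over all cells, and 494 higher and 386 lower within types. The stage contrast had 11 calls with DESeq2 in place of 2, and 0 (without E8.5 WT A) to 10 (without E8.5 null A) with 1 library left out. Abundance had 1 call with no minimum of cells and 0 to 2 with 1 library left out (1 without WT B, 2 without WT C), and 2 without WT B and C together. The neural and mesodermal contrast had 0 calls under each alternative run. The *Stat3* difference was -4.01 to -3.79 CPM with 1 library left out and -3.42 as a mean over types.

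For single genes over all cells, the log2 fold change of *Fbxo2* ran from -0.108 (WT C left out; -0.046 for null A) to 0.511 (WT A left out), with -0.324 for WT B and C together. That of *Pim1* ran from -0.0257 (null B left out; -0.0193 for WT A, -0.0113 for WT C) to 0.116 (WT B left out). Neither gene was called over all cells. *Ifi211* went to 0.0148 when averaged over types, an average that leaves out EMP, the only type that tested it. Of the other values, 1032 kept direction and side of the threshold, 32 no longer passed, 14 came to pass and 3 medians moved. The cause of these changes was not tested, other than that fewer types, cells or libraries enter some fits. Leaving out WT B and C or the blood and endothelial types was chosen after seeing the data. No paired analysis was possible because the library names carry no replicate number or pool of the labels. *Xist* is raised in null B and C, as in WT B and C, which does not say which of them would belong together, so libraries of a letter may share an embryo and a block was not built from these values.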
